A study of Mus musculus with 8 samples.

Results

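miR-150-5p is a mature miRNA of the Mir150 hairpin and 1 of the 1978 mature names in the deposited table, 877 of which kept a count after rounding. It was taken by its exact name, mmu-miR-150-5p, which stood in 1 of the 2128 rows, and it was followed through all 8 libraries of the series. The libraries hold small RNA of CD8+ T cells sorted from mouse spleen. They fall into 4 groups of 2: WT TN, WT MP, mCre TN and mCre MP. TN and MP are the sorted subsets, by common use true naive and memory phenotype cells, though no label spells them out. The series' design text has VM, often short for virtual memory, where the sample titles have MP. WT and mCre are the genotypes. The series title names mir29 and Cre, the enzyme that cuts out loxP-flanked DNA, and the design text has Cre- where the titles have mCre. What was deleted, the promoter driving Cre, the strain and each sample's age could not be taken from the labels, whose shared protocol allows adult or neonatal spleens. All groups went through the same bead selection for CD8 and the same sort on CD8, CD4, CD44 and CD122. Whether a group's libraries are from different mice is not stated, so every p-value here covers only the spread between libraries, which may be technical.

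miRNAs are short RNAs cut from a hairpin; each hairpin can give a strand from either arm (5p or 3p), and the strand that is loaded into Argonaute guides the repression of mRNAs that pair with its seed, bases 2 to 8. miR-150-5p is known as a miRNA of mature B, T and NK lymphocytes. It rises as lymphocytes mature and is known to fall when T cells are activated. The transcription factor Myb is its best known target, and in CD8+ T cells it has been tied to the balance of effector and memory differentiation. mRNAs were not measured in these libraries, so no target is described.

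Mir150 lies on chromosome 7 at 45121757 to 45121821 on the plus strand (GRCm38, mm10; GENCODE M21). The annotation places no other gene over it. The next genes are Fcgrt, which encodes the neonatal Fc receptor, 17905 bases away at lower coordinates, and the antisense transcript gene Gm45552, 95 bases away at higher coordinates. That of the mature miR-150-5p is missing from the RefSeq table for GRCm38.p6, so it is not shown and miRNAs sharing its seed were not looked up. The sequences below, from that table, are shown for their seeds: the partner strand of the hairpin, then the miRNAs of the miR-25 seed family whose pattern lay near that of miR-150-5p, then a pair with the let-7 seed. Capitals mark the seed.
miR-150-3p: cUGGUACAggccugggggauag
miR-363-3p: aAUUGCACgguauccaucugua
miR-25-3p: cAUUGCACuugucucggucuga
miR-92a-3p: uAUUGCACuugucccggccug
let-7f-5p: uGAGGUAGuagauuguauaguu
miR-98-5p: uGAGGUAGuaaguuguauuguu
The seed of miR-150-3p stood in 1 mature miRNA of that table, itself. miR-363-3p, miR-25-3p and miR-92a-3p share their seed, and miR-98-5p shares the let-7 seed without the let-7 name, so it is not among the names that were left out where a share outside let-7 is given.

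Libraries held 1936597 to 5230975 counts. let-7 took 43.4% to 69.4% of them, and over 60% in the library labelled WT TN replicate 2 (69.4%) and in mCre MP replicates 1 and 2 (63.9% and 60.04%). The summed miR-29 guide strands ran from 0.0770% to 1.59%. Among TN cells these extremes both lay in replicate 2 and ran against what a miR-29 deletion in mCre would give: the library labelled WT held the lowest value and the library labelled mCre the highest. In TN replicate 1 the order was the other way, with 0.354% in WT and 0.169% in mCre. MP held 0.367% and 1.14% in WT and 0.0774% and 0.132% in mCre. The 3 lowest values lay in the 3 libraries with over 60% let-7. Whether the TN replicate 2 libraries were exchanged, or the let-7 share plays a part, was not tested. Groups follow the labels, and results for miR-150-5p are also given without both TN replicate 2 libraries. Of the lymphocyte markers fixed for the check of cell type, all 3 (miR-142a-3p, miR-342-3p and miR-181a-5p) were present in every library. Their sum was 12662 and 4852 CPM in WT TN, 6644 and 6287 in WT MP, 10771 and 22216 in mCre TN, and 1676 and 2710 in mCre MP, lowest in the mCre MP libraries and highest in the library labelled mCre TN replicate 2, as the CPM of miR-150-5p was at its lowest and highest in an mCre MP library and in that mCre TN library. The sum is unscaled, and the markers did not all follow it. miR-181a-5p had the widest range of counts over the libraries, 822 to 39718. miR-142a-3p ran from 1167 to 9932 counts and miR-342-3p from 1486 to 21598. After TMM scaling miR-142a-3p was highest in WT TN replicate 1 (2660 CPM), against 1246 in the library labelled mCre TN replicate 2. It was lowest in mCre MP replicate 1 (618). miR-342-3p was highest in the library labelled mCre TN replicate 2 (7486) and lowest in the library labelled WT TN replicate 2 (837). Summed over all members, the markers of myeloid cells (2) ran from 1.40 to 13.7 CPM, of erythroid cells (5) from 81.6 to 273, of endothelial and stromal cells (4) from 22.2 to 109 and of liver, muscle and neural tissue (6) from 14.0 to 38.8. Of the defining markers miR-144-3p was at 0 in 7 libraries, and miR-223-3p and miR-451a were each at 0 in 1.

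miR-150-5p was among the most abundant miRNAs in all 8 libraries. By mean share of all counts it stood at 5 (8.09% ± 3.76, SD, n = 8), after let-7f-5p (22.2% ± 4.44), let-7g-5p (11.4% ± 3.04), let-7a-5p (9.66% ± 4.65) and miR-92a-3p (8.33% ± 1.34). It took 6.16% and 4.22% of all counts in WT TN replicates 1 and 2, 9.34% and 9.79% in WT MP, 10.1% and 15.2% in mCre TN, and 3.84% and 6.09% in mCre MP. Both mCre TN libraries were the highest, both WT MP libraries came next, and the WT TN and mCre MP libraries overlapped at the low end. The highest library exceeded the lowest 3.95-fold. Counting error was small beside this, with 95% Wilson intervals of 3.82% to 3.87% in the lowest library and 15.1% to 15.2% in the highest. In no group did the intervals of the 2 libraries overlap. Intervals cover counting error only and treat reads as independent. Reads without molecular identifiers are not independent molecules, so that error may be larger than the intervals show. By rank among all miRNAs miR-150-5p stood at 2 in mCre TN replicate 2, at 3 in both WT MP libraries and mCre TN replicate 1, at 5 in WT TN replicate 1 and mCre MP replicate 2, at 6 in mCre MP replicate 1 and at 7 in WT TN replicate 2.

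let-7 is so abundant that a change in its share moves every other share, so miR-150-5p was also read against the counts outside let-7. On that scale it took 12.6% and 13.8% in WT TN, 16.5% and 18.1% in WT MP, 21.0% and 26.9% in mCre TN, and 10.7% and 15.3% in mCre MP. It ranked 1 among miRNAs outside let-7 in the WT MP and mCre TN libraries and 2 in the WT TN and mCre MP libraries. The group means were 12.95% ± 3.25 in mCre MP, 13.2% ± 0.825 in WT TN, 17.3% ± 1.15 in WT MP and 23.99% ± 4.16 in mCre TN (SD, n = 2 each). In this order the mCre MP and WT TN libraries overlapped, while both WT MP libraries lay above all of these and both mCre TN libraries above WT MP. Removing let-7 narrowed the range over the 8 libraries from 3.95-fold to 2.53-fold and kept the order of the 4 group means. A share does not tell more miR-150-5p per cell from less of other miRNAs, and fewer cells of a type and less RNA per cell cannot be told apart.

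**Figure D1:**
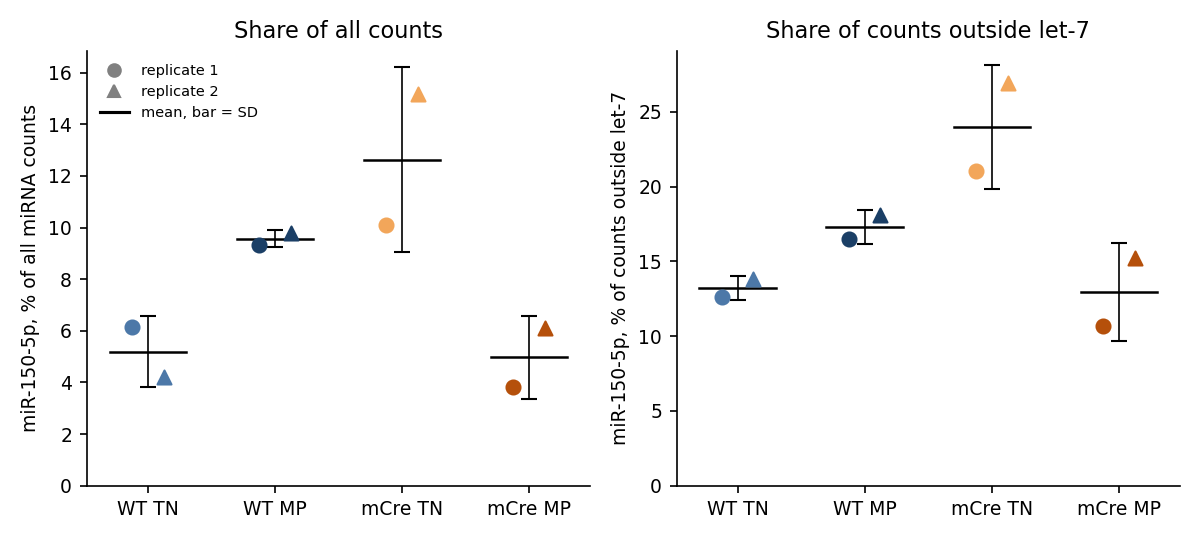
Share of miR-150-5p in percent of all miRNA counts (left) and of counts outside let-7 (right) in the 4 groups; circles and triangles are replicates 1 and 2, lines are means and bars the SD (n = 2). On both scales the mCre TN libraries are highest, the WT MP libraries next, and WT TN and mCre MP overlap.

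The first comparison asked how miR-150-5p differs between MP and TN in WT cells. After TMM scaling miR-150-5p stood at 83131 and 104650 CPM in the WT MP libraries and at 49909 and 46035 CPM in the WT TN libraries. Both MP libraries were thus above both TN libraries, as was the case for 100 of the 382 miRNAs tested (26.2%). The fold change was 1.96 (95% interval 0.998 to 3.84), or 0.97 ± 0.42 on the log2 scale (SE), and it did not pass (edgeR adjusted p = 0.604). edgeR called 0 of 382 miRNAs (0%) in this comparison, with 31 below 0.05 before adjustment; DESeq2 called 10, without miR-150-5p (DESeq2 adjusted p = 0.701). Without both TN replicate 2 libraries the log2 difference was 0.79 ± 0.48 (edgeR adjusted p = 0.456).

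In mCre cells the values lay the other way round. miR-150-5p was at 43540 and 72673 CPM in the mCre MP libraries and at 87741 and 153520 CPM in the mCre TN libraries. Both MP libraries were below both TN libraries, a direction without overlap that 136 of 382 miRNAs showed (35.6%). The log2 difference was -1.05 ± 0.42 (SE; 95% interval -2.03 to -0.08), a level 2.08-fold lower in MP, and it did not pass after adjustment (edgeR adjusted p = 0.229; unadjusted p = 0.0372). edgeR called 0 of 382 (0%) here, with 82 below 0.05 before adjustment; DESeq2 called 41, without miR-150-5p (DESeq2 adjusted p = 0.203). Without the library labelled mCre TN replicate 2 the value was -0.72 ± 0.57, without mCre MP replicate 1 -0.67 ± 0.48, and without both TN replicate 2 libraries -0.72 ± 0.45 (edgeR adjusted p = 0.325).

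The subset effect of miR-150-5p was then compared between the genotypes. It was 0.97 in WT and -1.05 in mCre on the log2 scale, a difference of -2.02 ± 0.60 (SE; 95% interval -3.40 to -0.65), or 4.06-fold. By its p it stood at rank 6 of 382 (unadjusted p = 0.00955), and it did not pass (edgeR adjusted p = 0.301). edgeR called 0 of 382 (0%), with 54 below 0.05 before adjustment (14.1%); DESeq2 called 18, without miR-150-5p (DESeq2 adjusted p = 0.188). The full pattern by the labels, both MP libraries above both TN libraries in WT and below them in mCre, was shown by 29 of 382 miRNAs (7.59%), and the mirror pattern by 8 (2.09%). With WT TN replicate 1 left out the difference of -2.21 passed (edgeR adjusted p = 0.0411), as did 68 miRNAs in all; without both TN replicate 2 libraries it was -1.51 ± 0.65 (edgeR adjusted p = 0.669). The separation depends on the labels of those libraries: 153520 CPM, labelled mCre TN, lies above both WT MP libraries, and 46035 CPM, labelled WT TN, lies between the mCre MP libraries. TN replicate 1 alone was below both MP libraries in WT and above both in mCre.

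**Figure D2:**
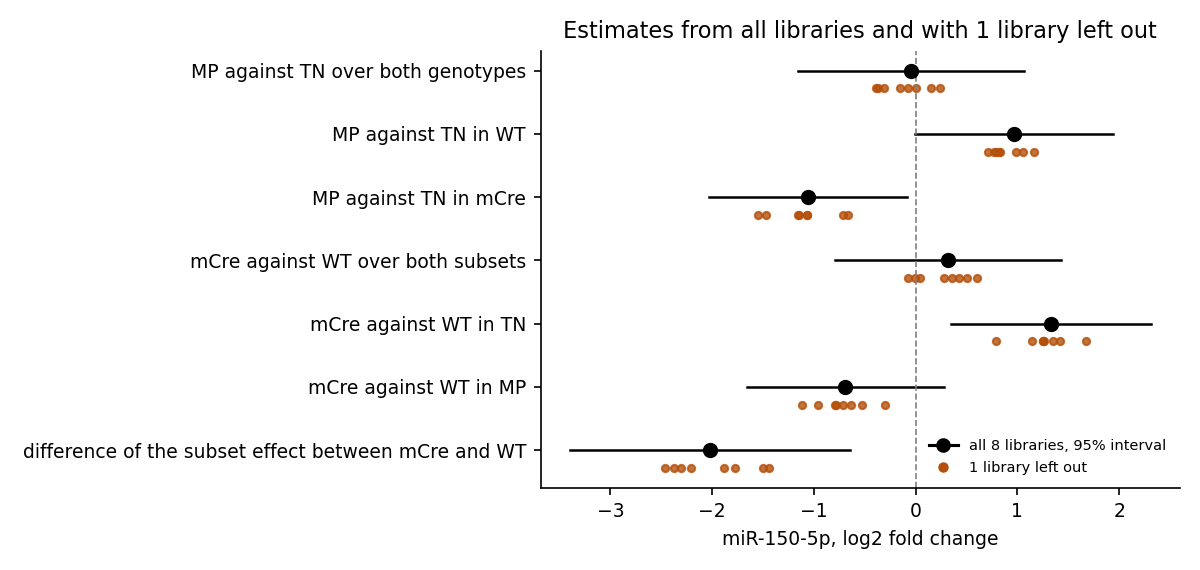
Log2 fold change of miR-150-5p in the 7 fitted comparisons; black points and lines are estimates from all 8 libraries with 95% intervals, and small points are estimates with 1 library left out. The within-WT and within-mCre subset effects, 0.97 and -1.05, lie on opposite sides of 0 with any library left out, while the comparisons over both genotypes or subsets change sign.

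The genotype was compared within each subset. In TN, both mCre libraries (87741 and 153520 CPM) were above both WT libraries (49909 and 46035 CPM), as for 60 of 382 miRNAs (15.7%). The fold was 2.51 (95% interval 1.28 to 4.96), or 1.33 ± 0.42 on the log2 scale. Its p stood at rank 2 of 382 (unadjusted p = 0.0140) and did not pass (edgeR adjusted p = 0.957). edgeR called 0 of 382 (0%) with 12 below 0.05 before adjustment; DESeq2 called 0. These are the libraries whose replicate 2 ran against the labels in miR-29: without the library labelled mCre TN replicate 2 the log2 difference was 0.79 ± 0.57, and without both TN replicate 2 libraries 0.80 ± 0.53 (edgeR adjusted p = 0.994).

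In MP, both mCre libraries (43540 and 72673 CPM) were below both WT libraries (83131 and 104650 CPM), as for 143 of 382 miRNAs (37.4%). The log2 difference was -0.69 ± 0.42 (95% interval -1.66 to 0.28), a level 1.62-fold lower, which did not pass (edgeR adjusted p = 0.455). edgeR called 0 of 382 (0%) with 41 below 0.05 before adjustment; DESeq2 called 0. Left-out libraries moved the value from -1.12 (without mCre MP replicate 2) to -0.30 (without mCre MP replicate 1), and without both TN replicate 2 libraries it was -0.71 ± 0.38 (edgeR adjusted p = 0.249).

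Pooled over the other factor, neither the subset nor the genotype gave a difference beyond the spread. MP against TN over both genotypes was -0.04 ± 0.49 on the log2 scale (95% interval -1.15 to 1.07; edgeR adjusted p = 0.955), rank 373 of 382 by p, in a comparison in which 9 of 382 miRNAs passed (2.36%). As a share of all counts miR-150-5p averaged 7.27% ± 2.82 in MP and 8.91% ± 4.83 in TN, and outside let-7 15.1% ± 3.21 and 18.6% ± 6.69 (SD, n = 4 each). Exact two-sided permutation tests gave p = 0.486 and p = 0.400, both 0.648 after Benjamini-Hochberg adjustment over the 4 share tests. mCre against WT over both subsets was 0.32 ± 0.49 (95% interval -0.79 to 1.43; edgeR adjusted p = 0.992), with 0 of 382 called by edgeR (0%), 5 below 0.05 before adjustment, and 0 by DESeq2. The shares averaged 8.80% ± 4.97 in mCre and 7.38% ± 2.65 in WT, and 18.5% ± 7.07 and 15.3% ± 2.50 outside let-7 (SD, n = 4 each; exact permutation p = 0.686 and p = 0.486, adjusted 0.686 and 0.648). The smallest p that 4 against 4 libraries allow is 0.0286. The estimates of the subset effect within WT and within mCre differed in sign. With all 8 libraries neither they nor their difference passed, and their part in the pooled values was not tested. Without both mCre MP libraries the pooled subset difference was 0.70. Without both TN replicate 2 libraries the pooled genotype difference was -0.21.

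miR-150-3p, the partner strand that is cut from the same hairpin, did not follow miR-150-5p. It stood at 1141 and 3305 CPM in WT TN, 1025 and 1403 in WT MP, 1518 and 1460 in mCre TN, and 4614 and 3073 in mCre MP. The library labelled WT TN replicate 2 and both mCre MP libraries were thus the 3 highest for the 3p strand, and they are the 3 with over 60% let-7. The counts of miR-150-5p per count of miR-150-3p were 43.8 and 13.9 in WT TN, 81.1 and 74.6 in WT MP, 57.8 and 105 in mCre TN, and 9.44 and 23.7 in mCre MP, an 11.1-fold range. This strand ratio, which no scaling of a library changes, was lowest in the same 3 libraries.

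In edgeR's fit miR-150-3p was 1.37 ± 0.62 higher in MP than in TN in mCre (log2; edgeR adjusted p = 0.231) and -0.87 ± 0.62 in WT (edgeR adjusted p = 0.730), so the difference between genotypes, 2.24 ± 0.88, had the sign opposite to that of miR-150-5p and did not pass either (edgeR adjusted p = 0.301). This difference was 1.31 without WT TN replicate 2 and 1.198 ± 0.678 without both TN replicate 2 libraries (edgeR adjusted p = 0.783), and it passed at 2.69 without WT TN replicate 1 (edgeR adjusted p = 0.0272). The WT value rests on 1 library: with both TN replicate 2 libraries left out it was -0.03 ± 0.48. In mCre against WT within MP miR-150-3p was 1.66 ± 0.63 (edgeR adjusted p = 0.411), and without both TN replicate 2 libraries 1.60 ± 0.40, which passed (edgeR adjusted p = 0.0179), as did 63 miRNAs in all under that setting, the only 1 of 16 alternatives in which any miRNA passed in this comparison.

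**Figure D3:**
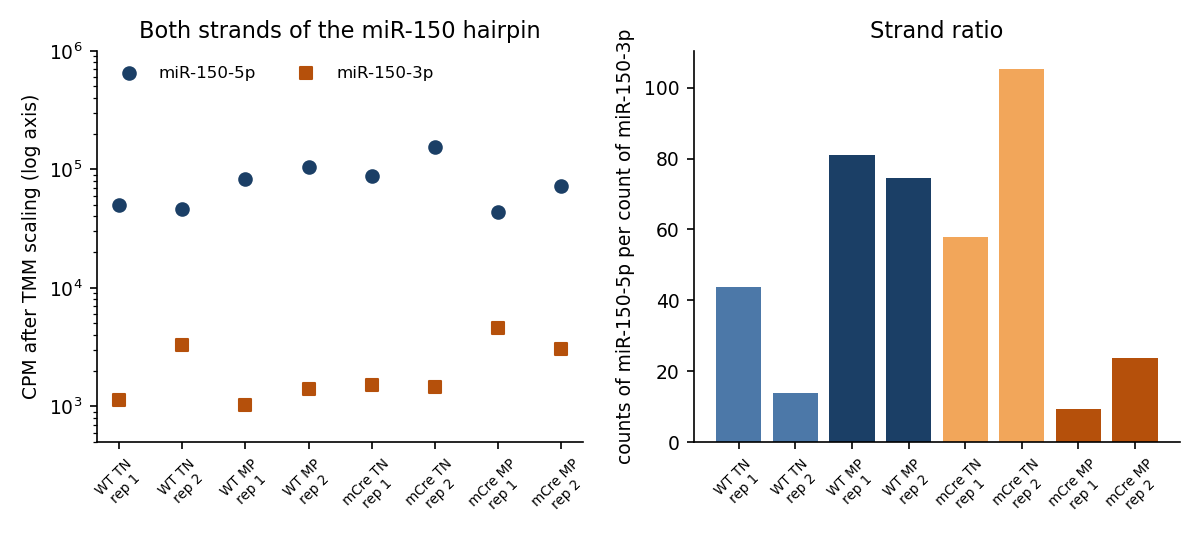
Left, CPM after TMM scaling of miR-150-5p and miR-150-3p in each of the 8 libraries (log axis); right, counts of miR-150-5p per count of miR-150-3p. The ratio runs from 9.44 in mCre MP replicate 1 to 105 in mCre TN replicate 2 and is lowest where the 3p strand is highest.

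Other hairpins were read in the same way to place this ratio. In 34 hairpins both strands had at least 20 counts in every library, and the ratio of the strand with more counts to its partner had a median range of 7.48-fold over the 8 libraries. miR-150 stood at rank 10 of 34 by that range. Centred on its mean over the libraries, the log2 ratio of miR-150 ran from -2.03 to 1.44. The library medians over the 34 hairpins ran from -0.26 to 0.21, but shifts in opposite directions can cancel in a median. In the library labelled WT TN replicate 2 and both mCre MP libraries, miR-342 (0.198, 0.206 and 0.503) and miR-191 (31.2, 36.4 and 52.6) also had their lowest ratios. There miR-106b, with 3p as the strand with more counts, had its highest (59.5, 52.4 and 46.5). miR-148b and miR-330 did neither. The slope of abundance on base composition was above 0 only in the 3 libraries with over 60% let-7. Over the 308 of 382 tested miRNAs with a mature sequence in the RefSeq table (80.6%), the slope of centred log2 CPM on GC content was 0.26 in the library labelled WT TN replicate 2, 0.32 and 0.077 in mCre MP replicates 1 and 2, and -0.29 to -0.021 in the other 5, per 10 percentage points of GC. miR-150-3p has 63.6% GC against a median of 47.8% among those miRNAs. The summed erythroid markers were also highest in these 3 libraries, at 184, 273 and 180 CPM against 81.6 to 157 in the other 5. That sum is mostly miR-486a-5p (147 to 293 counts) and miR-486b-5p (129 to 290). miR-451a had at most 33 counts in a library and did not go with the sum. For mCre against WT within MP, miR-451a was -2.93 ± 1.44 (log2, edgeR adjusted p = 0.411). miR-486a-5p and miR-486b-5p were 0.90 ± 0.62 and 0.83 ± 0.66. The part of base composition, of the let-7 share and of either marker sum in the values of both strands was not tested.

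The miRNAs nearest in pattern to miR-150-5p were taken as those with the smallest SD, over the 8 libraries, of the log2 ratio to miR-150-5p, among the 125 other tested miRNAs with a mean of at least 100 CPM. They were miR-363-3p (SD 0.32), miR-328-3p (0.35), miR-25-3p (0.37), miR-378d (0.37) and miR-98-5p (0.37), against a median SD of 0.98. A miRNA that did not vary at all would have had an SD of 0.64, that of miR-150-5p itself. miR-363-3p, of the miR-106a-363 cluster on the X chromosome, was at 216 and 101 CPM in WT TN, 275 and 335 in WT MP, 238 and 420 in mCre TN, and 144 and 162 in mCre MP. As with miR-150-5p, it was higher in both MP libraries in WT and lower in both in mCre. It was chosen by its likeness over these same libraries, so this shared order is not separate evidence. miR-25-3p, of the miR-106b-25 cluster, ran from 9701 CPM in mCre MP replicate 1 to 18124 in WT MP replicate 2 and shares its seed with miR-363-3p. miR-92a-3p, of the same seed and the most abundant miRNA outside let-7 where miR-150-5p was not, came at position 8 (SD 0.48), while the scarcer miR-92b-3p of that seed had an SD of 1.01. miR-98-5p ran from 1114 CPM in mCre MP replicate 1 to 4003 in the library labelled mCre TN replicate 2. The partner strand miR-150-3p came at position 88 (SD 1.27). The points share 8 libraries and their depth, and the nearness is a description of these libraries.

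**Figure D4:**
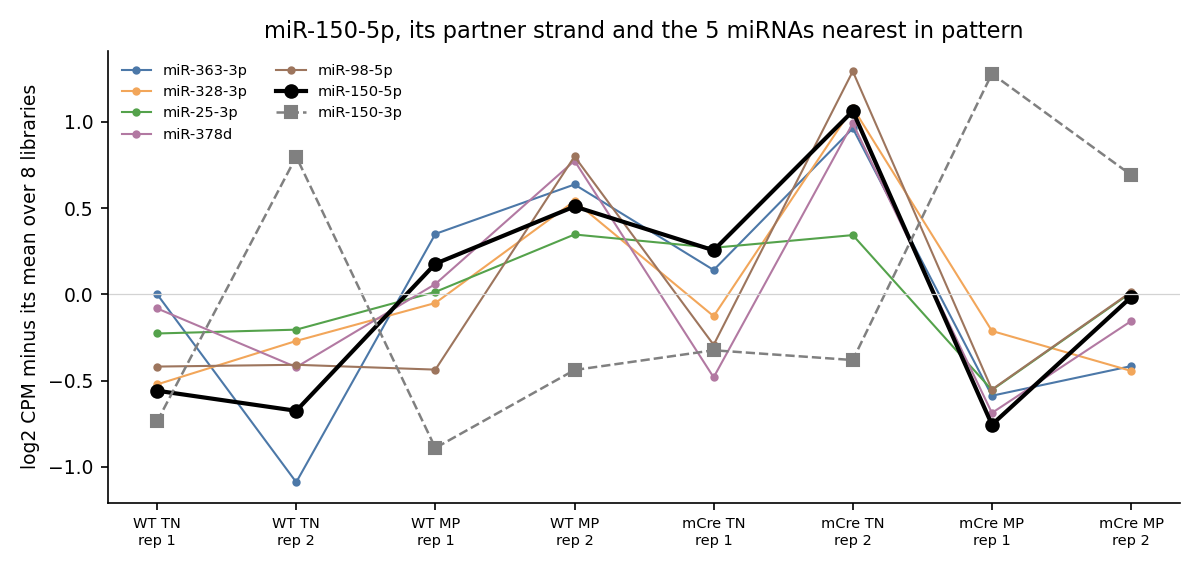
Log2 CPM, minus its mean over the 8 libraries, of miR-150-5p (black), the 5 miRNAs nearest to it in pattern (colours) and miR-150-3p (grey, dashed); lines join the values of a miRNA and do not mark an order of libraries. The 6 solid lines are highest in the library labelled mCre TN replicate 2 or in WT MP replicate 2, and miR-150-3p is highest in mCre MP replicate 1.

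miR-150-5p was set beside other miRNAs known as high in resting lymphocytes. All 11 members of that list were tested, and 0 passed in any of the comparisons of subset or genotype. In WT, 6 of 11 were higher and 5 lower in MP, with a median log2 difference of 0.40, beside 202 of 382 higher and a median of 0.05 over all miRNAs tested. In mCre, 2 of 11 were higher and 9 lower, with a median of -0.77, beside 173 of 382 higher and a median of -0.18. The WT median rests on the library labelled WT TN replicate 2 and was -0.06 without it, and 1.38 without WT TN replicate 1. The mCre median was -0.49 without mCre MP replicate 1 and -1.29 without mCre MP replicate 2. miR-26a-5p, the most abundant member, was at 28448 and 15626 CPM in WT TN, 28509 and 29494 in WT MP, 25546 and 27418 in mCre TN, and 11714 and 17287 in mCre MP, lowest in the 3 libraries with over 60% let-7. miR-26b-5p, which differs from miR-26a-5p outside the seed, had log2 differences of 1.42 ± 0.83 in WT and -2.27 ± 0.85 in mCre (edgeR adjusted p = 0.669 and 0.218), and miR-30c-5p of 0.87 ± 0.72 and -0.67 ± 0.71 (edgeR adjusted p = 0.796 and 0.551). With 1 library left out, miR-26b-5p ran from 0.53 (without WT MP replicate 2) to 2.22 (without WT TN replicate 1) in WT and from -3.06 (without mCre TN replicate 1) to -0.93 (without mCre TN replicate 2) in mCre, where it passed with no filter on low counts (edgeR adjusted p = 0.0253) and with DESeq2 (adjusted p = 0.0466). miR-30c-5p ran from 0.31 (without WT TN replicate 2) to 1.62 (without WT TN replicate 1) in WT and changed sign in mCre, from -1.42 (without mCre MP replicate 2) to 0.42 (without mCre TN replicate 1). Of the less abundant members, miR-342-3p and miR-30b-5p were also above 0 in WT and below 0 in mCre. The rest were not. miR-139-5p was higher in MP in both genotypes (1.21 ± 0.72 in WT, 2.63 ± 0.76 in mCre). miR-342-5p was -0.68 ± 1.23 in WT and 1.56 ± 1.26 in mCre. miR-101a-3p, miR-101b-3p and both miR-142a strands were below 0 in both.

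The list of miRNAs induced on T cell activation had 9 of 11 members tested. Unlike miR-150-5p, most had the same sign in both genotypes: 8 of 9 were higher in MP in WT (median 1.38), beside 202 of 382 over all miRNAs tested (median 0.05), and 7 of 9 in mCre (median 1.55), beside 173 of 382 (median -0.18). The mCre median was 0.82 without mCre MP replicate 2 and 0.68 with no filter on low counts. Over both genotypes 2 of 9 passed, both higher in MP, beside 9 of 382 (2.36%). Those were miR-21a-5p (log2 difference 1.87 ± 0.36, edgeR adjusted p = 0.0392) and miR-146a-5p (2.61 ± 0.37, edgeR adjusted p = 0.0137). Leaving out 1 library at a time, miR-21a-5p passed only without WT TN replicate 2 (edgeR adjusted p up to 0.258 without any of the other 7), and miR-146a-5p passed without WT TN replicate 2, mCre TN replicate 2 or mCre MP replicate 1 (up to 0.112 without any of the other 5); both were higher in MP each time. Without both TN replicate 2 libraries both passed (edgeR adjusted p = 0.0243 and 0.000567), and without both mCre MP libraries neither did (edgeR adjusted p = 0.353 and 0.348). miR-146a-5p, which restrains NF-kB through TRAF6 and IRAK1, was at 1793 and 2126 CPM in WT TN, 11758 and 17137 in WT MP, 2018 and 3686 in mCre TN, and 14742 and 13985 in mCre MP, so that all 4 MP libraries lay above all 4 TN libraries. miR-21a-5p showed the same separation, from 9528 to 21121 CPM in TN and from 42240 to 72079 in MP. So did the list members miR-222-3p, miR-182-5p, miR-183-5p and miR-96-5p, while miR-155-5p, miR-132-3p and miR-221-3p overlapped. How many of the 382 miRNAs tested separate in this way was not counted, so the separation is not read as a trait of this list. miR-155-5p, which is needed for effector responses, had log2 differences of 2.32 ± 0.55 in WT and 0.22 ± 0.53 in mCre (edgeR adjusted p = 0.181 and 0.804); the WT value passed with DESeq2 (2.13, adjusted p = 0.0216). The values of miR-150-5p overlapped between MP and TN over both genotypes, from 46035 to 153520 CPM in TN and from 43540 to 104650 in MP.

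**Figure D5:**
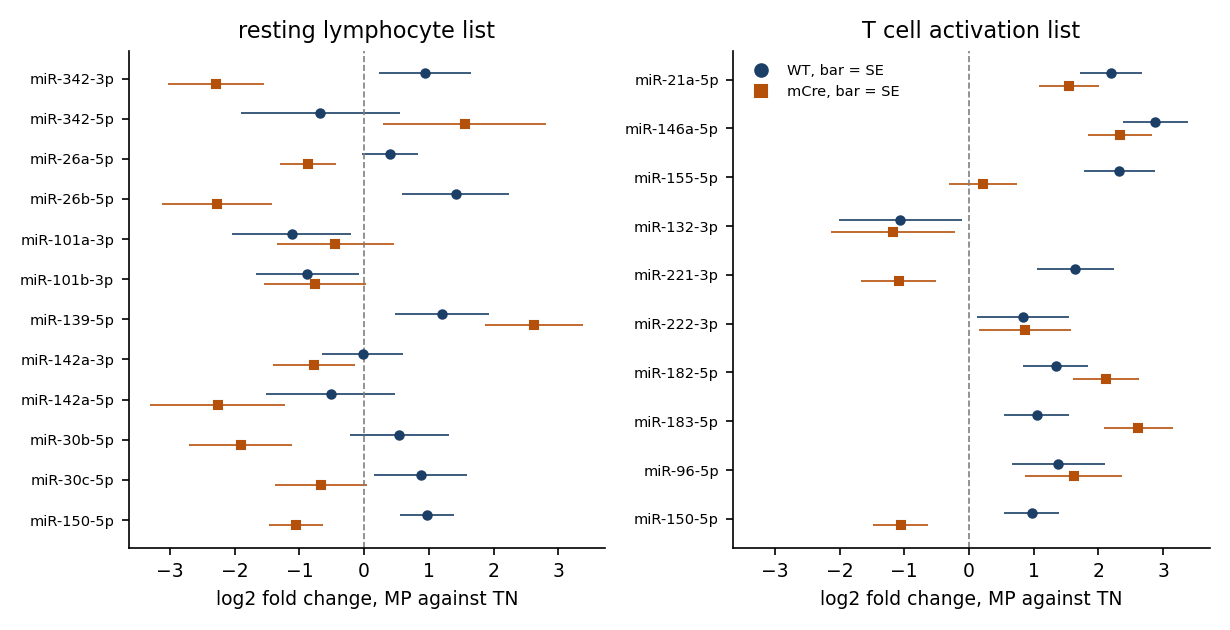
Log2 fold change of MP against TN in WT (circles) and mCre (squares), with SE bars, for the tested members of the resting lymphocyte list (left) and the T cell activation list (right), with miR-150-5p in the bottom row of each. miR-150-5p is at 0.97 in WT and -1.05 in mCre, while miR-21a-5p and miR-146a-5p are above 0 in both.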

How the data were processed

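Small RNA libraries of sorted mouse CD8+ T cells were made with a ligation-based kit and size selection, per the labels' protocols. The authors deposited 1 table of expected counts per miRNA row (deposited values of miR-150-5p ended in 0.5 in 7 of 8 libraries, so at least 1 read was divided between rows there; how many were is not known). The build was mm10, per the submitters' processing notes; the sources used here name no aligner, counter or miRNA annotation. All 8 columns were matched to sample titles. Rows of a name were summed and rounded. Low counts were filtered with filterByExpr (minimum count 10, minimum total 15), which left 382 miRNAs, miR-150-5p among them, and libraries were scaled by TMM; CPM follow that scaling, except the summed cell type markers, which are unscaled.

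Tests used edgeR 4.0.16 in R 4.3.3 (quasi-likelihood F test, robust, Benjamini-Hochberg adjustment over 382 miRNAs, threshold 0.05): a fit of 4 groups (4 residual degrees of freedom) and, for comparisons over both genotypes or subsets, an additive fit (5). Shares, in percent, were compared by exact permutation of 4 against 4 libraries (70 arrangements), and names starting with let-7 (21) were left out of the second denominator. SE is the log2 fold change over the square root of F. The additive fit was tested on simulated data that held a subset effect only. The fit of 4 groups was not tested in this way. Alternatives were RLE, total count and let-7-free scaling, no filter, DESeq2 1.42.0, 1 row per name, a replicate block and left-out libraries. Likeness used a prior count of 0.5. The text names miR-150-5p, its partner strand, the 5 nearest in pattern, the 5 leading miRNAs and the 3 most abundant members of each list with those that passed. miR-92a-3p, miR-92b-3p and let-7f-5p are shown for their seeds, after values were seen. The other members of both lists were also added after values were seen. The members and lists were chosen with earlier results of these data known.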

Additional observations from a re-analysis of the deposited data

Results flagged for a closer look

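The subset effect of miR-150-5p had opposite signs in the genotypes, with both MP libraries above both TN libraries in WT and below them in mCre. This separation depends on the labels of both TN replicate 2 libraries, against which miR-29 ran: 153520 CPM, labelled mCre TN, lies above both WT MP libraries, and 46035 CPM, labelled WT TN, lies between the mCre MP libraries. Whether these libraries were exchanged was not tested. The effect in mCre minus that in WT was -2.02 on the log2 scale (edgeR adjusted p = 0.301), so the difference was tested and did not pass. Of the 382 miRNAs tested, 29 (7.59%) showed these positions.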

How the results depend on the processing

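Of 166 values of miR-150-5p under alternatives, 154 kept their sign and side of the threshold, 1 came to pass and 11 changed sign. Under every alternative that gives them, the subset effects within WT (0.70 to 1.16, log2) and within mCre (-1.54 to -0.67) kept their signs, as did the genotype effects within TN (0.79 to 1.68) and MP (-1.12 to -0.30). Leaving out 1 library moved the difference of the subset effects from -2.46 to -1.44. It moved the pooled subset effect from -0.39 to 0.24 and the pooled genotype effect from -0.079 to 0.60. For the share of all counts it moved MP minus TN from -3.21 to 0.44 percentage points and mCre minus WT from -0.70 to 3.07. Without both mCre MP libraries the pooled subset effect was 0.70 for miR-150-5p and -1.17 for miR-150-3p. Without both TN replicate 2 libraries the pooled genotype effect was -0.21, and mCre minus WT was -1.75 points of all counts and -0.0963 outside let-7. miR-150-3p was then 0.40 for mCre against WT in TN, and miR-26a-5p, which is also the resting list's median, -0.088 in WT. Without the 3 libraries over 60% let-7, a setting chosen after seeing the data, these were 0.39 and -0.050, the pooled subset effect of miR-150-5p was 0.83 and miR-150-3p in WT 0.0053. miR-155-5p in mCre was -0.068 with total counts as library size.

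Leaving out 1 library moved miR-150-3p from -0.29 to 0.76 for the pooled subset effect and from -1.12 to 0.38 for mCre against WT in TN. In WT it moved miR-26a-5p from -0.062 to 0.92 and the resting list's median from -0.062 to 1.38, and in mCre miR-30c-5p from -1.42 to 0.42 and miR-155-5p from -0.19 to 0.52. With 1 library left in a group, that library is assumed to vary like the others. The cause of these changes was not tested.

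The number of miRNAs called depended on the setting: 0 to 49 for MP against TN over both genotypes (9 in the report), 0 to 14 in WT, 0 to 56 in mCre, 0 to 68 for the difference of the subset effects, and, for mCre against WT, 0 to 27 over both subsets, 0 to 63 in MP and 0 to 1 in TN. Deviations of replicate 1 from its group mean had correlations between groups from -0.32 to 0.41. With 2 libraries per group, each group gives 1 set of deviations. The correlations therefore cannot settle whether libraries of the same replicate number share a mouse or a day. With the replicate number as a block, miR-150-5p had a difference of subset effects of -1.98 (edgeR adjusted p = 0.507), 2 miRNAs were called for MP against TN over both genotypes, and 0 elsewhere. With the numbers of mCre TN crossed, 0 were called for mCre against WT in TN. For MP against TN over both genotypes miR-21a-5p also lost its call with total counts as library size (edgeR adjusted p = 0.102), with the replicate block (0.0733) and without the 3 libraries over 60% let-7 (0.134), and miR-146a-5p in the last of these (0.124). miR-150-5p had 81728 or more counts in every library, so counting error adds little to these ranges if reads are taken as independent.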
